A study of Homo sapiens with 6 samples.

Results

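The urea cycle and the steps that feed it were examined in HepG2 cells through 9 genes, taken by symbol from the 61541 Ensembl genes of the deposited counts: CPS1, OTC, ASS1, ASL, ARG1, ARG2, NAGS, SLC25A13 and SLC25A15. The cells were luciferases-expressing HepG2, a human hepatoblastoma line, and both groups carried the same reporters on a mouse artificial chromosome vector, namely the red luciferase SLR3 behind the antioxidant response element (ARE) and a TK promoter, and the green luciferase ELuc behind a TK promoter alone. The sedanolide group (n = 3 libraries) received sedanolide, a phthalide of celery dissolved in DMSO, at 100 μM for 24 h. The control group (n = 3 libraries) was not given sedanolide, and neither the labels nor the methods state whether it received DMSO. The labels number the libraries but do not say that they came from separate cultures, so that the p-values measure the spread between these libraries.

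The urea cycle is the route by which hepatocytes turn ammonia into urea. In mitochondria, CPS1 joins ammonia and bicarbonate into carbamoyl phosphate when it is activated by N-acetylglutamate, the product of NAGS, and OTC transfers the carbamoyl group to ornithine to give citrulline. In the cytosol, ASS1 joins citrulline with aspartate, ASL cleaves the product into arginine and fumarate, and ARG1 splits arginine into urea and ornithine. ARG2 is the mitochondrial arginase. SLC25A15 exchanges ornithine for citrulline across the inner mitochondrial membrane, and SLC25A13, known as citrin, exports aspartate in exchange for glutamate.

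The cell line was checked against markers of hepatocytes and hepatoblastoma, and 9 of 9 (among them ALB, APOA1 and AFP) had at least 10 counts in every library. Their summed CPM was 29600 to 45600 in control and 21800 to 38600 in sedanolide-treated cells, their median log2 fold change was -0.43, and 0 were called. The log2 fold change was negative for 8 of the 9, against 6948 of all 14102 genes tested. In 3 of them, ALB (-0.43), TTR (-0.53) and FGB (-0.45), all treated libraries lay below all controls. Among all genes and reporters tested, 18.3% had groups that did not overlap, in either direction. Of 12 markers of leukocytes, stroma, endothelium and bile ducts, CD3E, COL1A2 and VWF had no count in any library, and the normalized CPM of the 12 summed to 272 to 334 in control and 245 to 330 in sedanolide-treated cells. Most of this sum was SOX9 (115 to 231 CPM) and ACTA2 (65.2 to 89.1 CPM). Of the 6 tested, 0 were called. The groups did not overlap in KRT19, CD68 and LYVE1, where they did not in 18.3% of all genes and reporters tested. KRT19, a keratin of bile duct cells, had means of 34.9 ± 10.3 CPM in the controls and 15.2 ± 4.94 CPM after sedanolide (SD, n = 3). The log2 fold changes were -1.21 for KRT19, 0.36 for CD68 (macrophages) and 0.97 for LYVE1 (endothelium). LYVE1 had only 7 to 31 counts per library. CD68 shares 1765 exon bases on the same strand with a long noncoding RNA that had 42.6% as many counts. The total expected counts were 16420258 to 26714853 per library. A principal component analysis of log2 CPM split the libraries across the conditions along component 1 (56.1% of the variance). Controls 1 and 2 and sedanolide 3 lay on what is called the first side below, and control 3 with the other 2 treated libraries on the second. Mitochondrially encoded genes took 1.43% to 2.15% of the counts among the former and 4.24% to 5.22% among the latter. What part the markers and the sides have in the results was not tested. No batch is named in the labels or methods, and each side holds libraries of both groups.

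No urea cycle gene that could be tested was called as changed by sedanolide. Counts scaled to a common library size (CPM, with TMM normalization) were compared with the quasi-likelihood test of edgeR over 14104 features (14102 genes and the 2 reporters), and a gene was called when its p-value after Benjamini-Hochberg adjustment (FDR) was under 0.05 and its fold change over 1.5. In all, 0.674% of the features were called (95, of which 51 were higher and 44 lower). Of the 9 genes, 7 had enough counts to be tested and 0 of them were called. Adjusted p-values were between 0.463 and 0.930. The count at an unadjusted p-value under 0.05 was 0 of 7 with edgeR, against 11.9% of all features, and limma-voom, which called 0.666% of all features, likewise called 0 of 7. DESeq2 called 0 of 7 as well, where it called 2.33% of all features (0.922% higher and 1.40% lower). The control and sedanolide libraries overlapped in normalized CPM for all 7, while 18.3% of all features had groups that did not overlap. The median log2 fold change of the 7 was 0.06, and that of all genes tested was 0.0057.

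**Figure D1:**
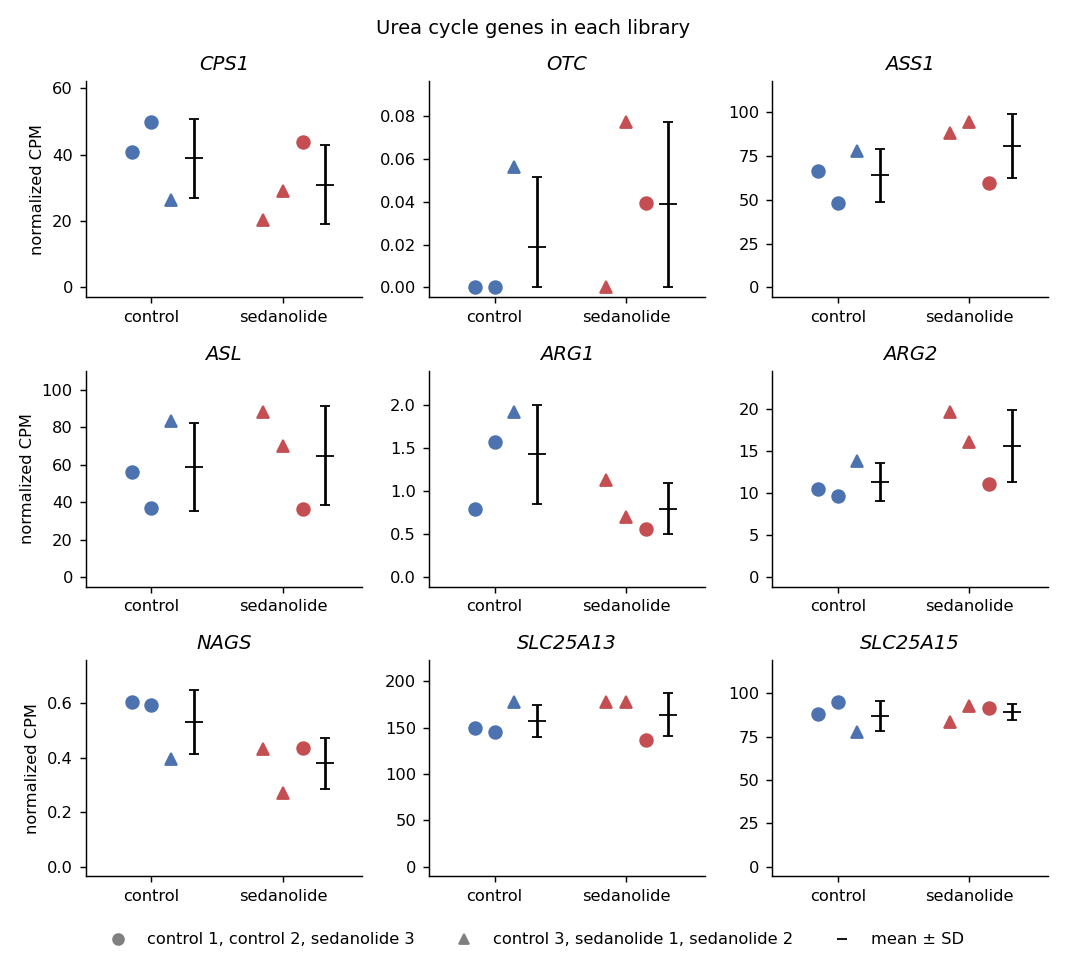
Normalized CPM (y axis, from 0 in each panel) of the 9 urea cycle genes in the 3 control (blue) and 3 sedanolide (red) libraries. Circles are control 1, control 2 and sedanolide 3, triangles are control 3, sedanolide 1 and sedanolide 2, and bars are the mean ± SD (drawn no lower than 0). The groups overlap in every panel, and in CPS1 the circles (40.8 to 49.8) all lie above the triangles (20.2 to 29.0).

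CPS1 (ENSG00000021826, chromosome 2 of GRCh38, 210477682 to 210679107, plus strand), the enzyme at the entry of the cycle, had 40.8, 49.8 and 26.2 CPM in controls 1 to 3 and 20.2, 29.0 and 43.8 CPM in sedanolide 1 to 3. Control 3 was low among the controls and sedanolide 3 was high among the treated libraries, so that the groups overlapped. The means of 38.9 ± 11.9 and 31.0 ± 11.9 CPM (SD, n = 3) gave a log2 fold change of -0.33 (standard error 0.328, 95% interval -1.10 to 0.45, adjusted p = 0.728 from edgeR). Within the first side the log2 fold change was -0.04, and within the second it was -0.11.

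NAGS and OTC, which act just before and just after CPS1, were near the limit of detection and did not pass the filter on low counts. NAGS (ENSG00000161653, chromosome 17, 44004622 to 44009068, plus strand) had 10, 14 and 7 counts in the controls and 8, 7 and 11 in the sedanolide libraries, or 0.531 ± 0.118 and 0.379 ± 0.0940 CPM (SD, n = 3). With a filter of 0.5 CPM in 1 library NAGS had a log2 fold change of -0.49 (edgeR adjusted p = 0.657). OTC (ENSG00000036473, chromosome X, 38352586 to 38421446, plus strand) had 0, 0 and 1 counts in the controls and 0, 2 and 1 in the sedanolide libraries. A count of 0 allows up to 3 counts, which was 0.112 to 0.183 CPM across the libraries and covers counting error only. No OTC value exceeded this limit, and no fold change is given for it.

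ASS1 (ENSG00000130707, chromosome 9, 130444961 to 130501274, plus strand) had 66.6, 48.0 and 78.0 CPM in the controls and 88.0, 94.4 and 59.7 CPM in the sedanolide libraries. Sedanolide 1 and 2 were above every control, and sedanolide 3 was below control 1 and control 3. The means of 64.2 ± 15.1 and 80.7 ± 18.5 CPM (SD, n = 3) gave a log2 fold change of 0.33 (standard error 0.235, 95% interval -0.22 to 0.89, adjusted p = 0.627 from edgeR), and 0.08 and 0.22 within the sides. Annotated pseudogenes of ASS1 are many, and the 14 in the table held 0.448% as many counts as ASS1.

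ASL (ENSG00000126522, chromosome 7, 66075800 to 66094697, plus strand) had the largest standard error of the tested members other than ARG1. Its values were 56.3, 37.0 and 83.7 CPM in the controls and 88.3, 69.9 and 36.2 CPM in the sedanolide libraries. The lowest and the highest library were both sedanolide libraries. The log2 fold change was 0.14 (standard error 0.388, 95% interval -0.78 to 1.05, adjusted p = 0.916 from edgeR), and it was negative within each side, at -0.33 and -0.09. It was also negative without control 2 (-0.11) and without sedanolide 1 (-0.15).

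Both arginases were measured, and the mitochondrial one carried most of the counts. ARG1 (ENSG00000118520, chromosome 6, 131470832 to 131584332, plus strand), the liver cytosolic form, had 13, 37 and 34 counts in the controls and 21, 18 and 14 in the sedanolide libraries. In CPM these were 0.788, 1.57 and 1.92 against 1.13, 0.695 and 0.555, so that only control 1 lay within the range of the treated libraries. Its log2 fold change of -0.88 (standard error 0.415, 95% interval -1.85 to 0.10, adjusted p = 0.463 from edgeR) was the largest in size among the members tested, and it was -0.90 and -1.04 within the sides. ARG2 (ENSG00000081181, chromosome 14, 67619920 to 67651708, plus strand) had 10.4, 9.57 and 13.8 CPM in the controls and 19.6, 16 and 11.0 CPM in the sedanolide libraries. Sedanolide 3 lay within the range of the controls and the other two lay above it. The log2 fold change was 0.46 (standard error 0.243, 95% interval -0.11 to 1.04, adjusted p = 0.506 from edgeR), and 0.14 and 0.36 within the sides. ARG2 shares 904 exon bases with VTI1B on the opposite strand, whose counts were 3.25 times those of ARG2. Whether the authors' counting used the strand of the directional libraries is not given in the sources used here. VTI1B itself stayed between 40.2 and 47.2 CPM in all libraries.

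Taken as a ratio per kilobase of exon, ARG2 exceeded ARG1 by 12.9, 5.94 and 6.96 times in controls 1 to 3 and by 16.8, 22.4 and 19.3 times in sedanolide 1 to 3. Every sedanolide library was above every control library. ARG2 made up 93.0% (exact binomial 95% interval 88.3% to 96.2%), 85.9% (81.1% to 89.9%) and 87.7% (83.3% to 91.4%) of the arginase counts in the controls. In the sedanolide libraries it made up 94.5% (91.8% to 96.6%), 95.8% (93.5% to 97.5%) and 95.2% (92.1% to 97.4%). The interval of control 1 overlaps those of all treated libraries, and the intervals cover counting error only. The mean log2 ratio was 3.02 ± 0.59 in control and 4.28 ± 0.21 in sedanolide-treated cells (SD, n = 3), a difference of 1.26. This ratio was chosen after the values had been seen, and no test is given for it.

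The mitochondrial carriers had the smallest log2 fold changes among the members tested, and their 95% intervals stayed within 1.5-fold (0.585 on the log2 scale) in both directions. SLC25A13 (ENSG00000004864, chromosome 7, 96120220 to 96322147, minus strand) had 150, 145.0 and 177.0 CPM in the controls and 177.0, 178.0 and 137.0 CPM in the sedanolide libraries, with sedanolide 3 the lowest of all. Its log2 fold change was 0.06 (standard error 0.151, 95% interval -0.29 to 0.42). SLC25A15 (ENSG00000102743, chromosome 13, 40789412 to 40812460, plus strand) had 88.1, 95.2 and 77.9 CPM in the controls and 83.6, 92.4 and 91.4 CPM in the sedanolide libraries, and all treated libraries lay within the range of the controls. Its log2 fold change was 0.03 (standard error 0.121, 95% interval -0.25 to 0.32). Within the sides these were -0.11 and 0.01 for SLC25A13 and 0.00 and 0.17 for SLC25A15.

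**Figure D2:**
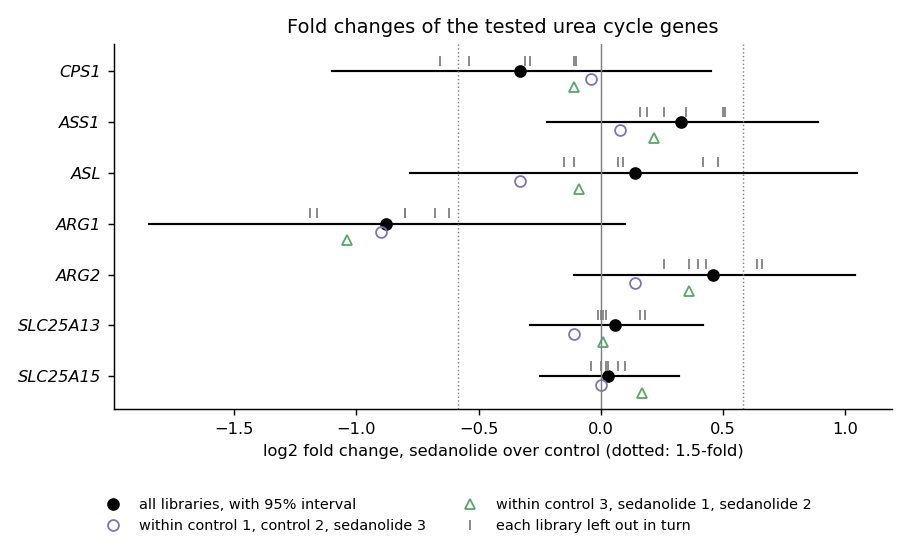
Log2 fold changes of sedanolide over control (x axis) for the 7 tested urea cycle genes. Filled circles with bars are the estimates from all 6 libraries with 95% intervals, open circles and triangles are the differences within the first and the second side, grey ticks leave out each library in turn, and dotted lines mark 1.5-fold. All 7 intervals include 0, and those of SLC25A13 and SLC25A15 stay between the dotted lines.

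Per length, the levels of the members were spread over a wide range, and ARG1, NAGS and OTC were the lowest. In the deposited log2(TPM + 1) table, which holds 6 of the 9 genes, the control means in TPM (a unit scaled by transcript length and library size) were 79.6 ± 4.76 for SLC25A13, 72 ± 11.4 for ASS1, 61.1 ± 20.2 for ASL and 42.6 ± 6.90 for SLC25A15 (SD, n = 3). CPS1 followed at 10.7 ± 4.12 TPM and ARG2 at 9.57 ± 1.27 TPM. The ranges of neighbours in this order overlapped among the controls, except that SLC25A15 lay above CPS1 in all 6 libraries. ARG1, NAGS and OTC are not in this table. From the counts, ARG1 had 0.642 ± 0.261 CPM per kilobase of annotated exon in control cells, NAGS 0.193 ± 0.0428 and OTC 0.0112 ± 0.0194, against 3.53 ± 1.08 for CPS1 (SD, n = 3). CPS1 was above ARG1, ARG1 above NAGS and NAGS above OTC in all 6 libraries. The order of ASL, SLC25A15, CPS1 and ARG2 differed between the scales, and the union of all annotated exons is 6031 bases for ASL and 11018 bases for CPS1.

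**Figure D3:**
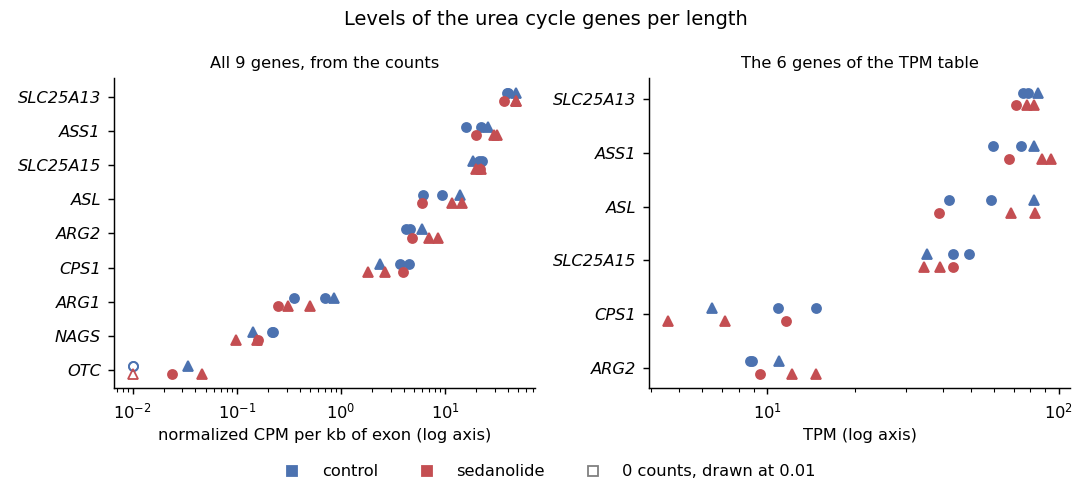
Levels of the urea cycle genes per length on log axes, as normalized CPM per kilobase of exon for all 9 genes (left) and as TPM for the 6 genes of the second deposited table (right). Blue is control and red is sedanolide, circles and triangles are the first and the second side, and libraries with 0 counts are open symbols at 0.01. OTC, NAGS and ARG1 lie below the other genes in every library.

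Most members differed between the sides of component 1. For 5 of the 7 tested genes, the normalized CPM of the 3 libraries on one side did not overlap with those on the other. Among all features 44.1% did so, and the sides come from the same libraries and genes, so that no test is given. ASL was at 36.2 to 56.3 CPM on the first side and at 69.9 to 88.3 CPM on the second. CPS1 went the other way, from 40.8 to 49.8 CPM on the first side to 20.2 to 29.0 CPM on the second. ASS1, ARG2 and SLC25A13 were higher on the second side as ASL was, with mean CPM of 58.1 and 86.8, of 10.3 and 16.4, and of 144.0 and 177.0. SLC25A15 and ARG1 overlapped between the sides. When the side was added to the model, the differences of the second from the first side were 0.99 for ASL, 0.58 for ARG2, 0.53 for ASS1, 0.32 for SLC25A13 and -0.81 for CPS1 on the log2 scale. The share of mitochondrial counts moved with the sides as given above, and its part in these differences was not tested. VTI1B, which overlaps ARG2, differed by 0.08 between the sides.

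With the side as a term, edgeR called 2.70% of all features (1.07% higher and 1.63% lower) and 0 of the 7 members. The side was read from component 1 of these same libraries. The p-values and calls of this fit, here and below, are therefore given as description only. The log2 fold changes with sedanolide were then -1.11 for ARG1 (adjusted p = 0.119 from edgeR), 0.25 for ARG2 (adjusted p = 0.332), -0.22 for ASL, 0.15 for ASS1, 0.08 for SLC25A15, -0.07 for CPS1 and -0.05 for SLC25A13. Sedanolide 3 is the only treated library on the first side, and without it the log2 fold changes were 0.66 for ARG2, 0.51 for ASS1 and -0.66 for CPS1. These had unadjusted p-values of 0.0106, 0.0373 and 0.0487 and adjusted p-values of 0.147, 0.197 and 0.214 from edgeR, and none was called.

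Promoter sequences of the members were read from RefSeq (GRCh38.p14), where 9 of 9 genes matched with 12 annotated starts between them. The 250 bases upstream of each start were searched on both strands for the letters of the ARE core (TGACNNNGC), which the reporter of the study also carries, and of other liver and core promoter motifs. The start used in these cells is not known. Some windows reached into annotated exons. Of the 250 bases, those in exons were 206, 167 and 0 for the starts of CPS1, 199 for SLC25A15 and 79 for NAGS. They were 49 for SLC25A13, 32 for ARG1 and 0 for ARG2. Only SLC25A13 held the ARE core, 161 to 153 bases upstream of its start, on the strand opposite to the gene, while 10.9% of all 35116 promoter windows held it. This stretch lies at chr7:96322241-96322269 on the minus strand, with the match in capitals.

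SLC25A13: ggacagcgcaGCGGGGTCAcgtgtccctg

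The arginases are shown because they were the members furthest apart in fold change and direction. The cyclic AMP response element (TGACGTCA), held by 1.65% of all windows, was found among the members in ARG2 alone, at 2 places. The window of ARG2 (chr14:67619670-67619919, plus strand) also held the CCAAT box (CCAAT, 32% of all windows) and the GC box (GGGCGG, 42.6%), and was 72.4% G or C. That of ARG1 was 37.6% G or C and held a TATA box (TATAAA, 10.7% of all windows) 29 to 24 bases upstream of the start, of which chr6:131573187-131573212 (plus strand) is given. Capitals mark the matches to the letters searched, of which GC boxes overlap each other once in ARG2.

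ARG2: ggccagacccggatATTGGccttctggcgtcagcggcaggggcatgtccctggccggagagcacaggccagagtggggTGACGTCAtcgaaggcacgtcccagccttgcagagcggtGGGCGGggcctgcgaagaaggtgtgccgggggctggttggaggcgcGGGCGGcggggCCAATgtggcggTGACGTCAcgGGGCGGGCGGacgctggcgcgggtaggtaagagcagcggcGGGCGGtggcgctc

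ARG1: tcaacccaagTATAAAtggaaaaaaa

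No window of a member held the letters of a C/EBP site (TTGCNNAA, 9.05% of all windows), of an ATF4 and C/EBP composite (TGATGNAA, 3.14%) and of an HNF4A site (CAAAGTCCA, 0.325%). At these shares, the lack of a match in 12 windows says little. The GC box was in the windows of ARG2, ASL, ASS1, NAGS, SLC25A13 and SLC25A15, and the TATA box in those of ARG1 and OTC. A match says only that the letters are there.

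Genes around the cycle were examined in 7 lists, with 110 genes of which 99 were tested. The lists were written from general knowledge, but with earlier results of these data known. With edgeR, 0 of these were called higher (0.362% of all features) and 1 was called lower (0.312%), namely CKB, and their median log2 fold change was 0.03. DESeq2 called 2 higher (0.922% of all features) and 7 lower (1.40%). With the side as a term, edgeR called 3 higher (1.07%) and 4 lower (1.63%). At an unadjusted p-value under 0.05, 7 were higher and 15 were lower with edgeR, where 5.35% and 6.57% of all features were. Counts of RNA in bulk cells cannot tell fewer cells from less RNA per cell.

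**Figure D4:**
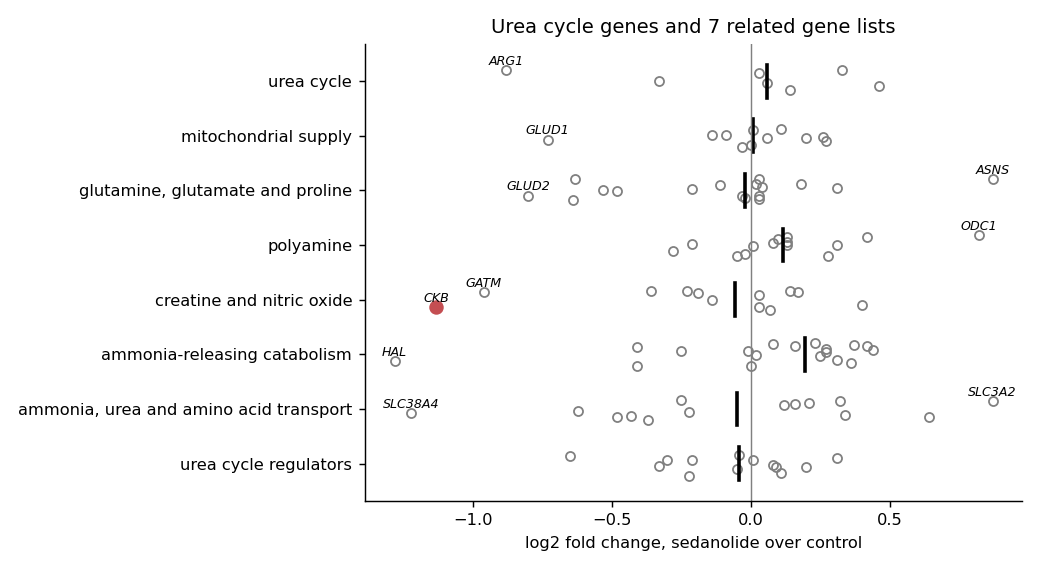
Log2 fold changes of sedanolide over control (x axis) for the tested urea cycle genes and the genes of 7 related lists (rows), each point a gene and each black line the median of its list. Vertical scatter within a row carries no value, names are given beyond 0.7 in size, and the filled red point is CKB (-1.13), the only gene of these called with edgeR.

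Genes that supply the cycle with bicarbonate, glutamate and aspartate (11 of 13 tested, 0 called) had a median log2 fold change of 0.01. GLUD1, the mitochondrial glutamate dehydrogenase that releases ammonia from glutamate, had 815, 841 and 767 CPM in the controls and 442, 516 and 504 CPM in the sedanolide libraries. All treated libraries lay below all controls. Its log2 fold change was -0.73 (standard error 0.116) with an adjusted p of 0.0513 from edgeR, just above the threshold, and -0.72 and -0.68 within the sides. It was past both thresholds with DESeq2 (adjusted p = 9.91e-07), limma-voom (0.0496), library size scaling (0.0427) and the side as a term (0.00501). The adjusted p of GLUD1 over all 17 alternatives lay between 9.91e-07 and 0.645. GLUD1 shares 464 exon bases with SHLD2 on the opposite strand. MDH2 (malate dehydrogenase, 0.20) and GOT2 (mitochondrial aspartate aminotransferase, 0.27) had the next lowest p-values of this list and were not called.

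Glutamine, glutamate, alanine and proline enzymes (17 of 17 tested, 0 called) had a median of -0.02. GPT2, the mitochondrial alanine aminotransferase, had 479, 466 and 410 CPM in the controls and 268, 278 and 332 CPM in the sedanolide libraries, or -0.63 in log2 fold change (edgeR adjusted p = 0.126). ALDH4A1, which oxidizes the proline breakdown product to glutamate, was at -0.64 in log2 fold change (adjusted p = 0.153), and GLUD2, a close copy of GLUD1 between which RSEM divides reads, at -0.80 (adjusted p = 0.155). In all 3 the groups did not overlap, and DESeq2 called each of them (adjusted p = 0.00338, 0.0145 and 0.0407). These 3 were named for their low p-values, which favors groups that do not overlap. In the whole list, the treated libraries lay above all controls for 1 gene and below them for 4. Among all features, 18.3% had groups that did not overlap.

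Polyamine genes (14 of 14 tested, 0 called) had a median of 0.11. ODC1, ornithine decarboxylase, which draws ornithine out of the cycle, had 366, 316 and 416 CPM in the controls and 681, 690 and 573 CPM in the sedanolide libraries. Every treated library was above every control. The difference was 0.82 ± 0.146 (log2 fold change ± standard error, edgeR adjusted p = 0.0721), with adjusted p-values of 2.37e-05 with DESeq2 and 0.00335 with the side as a term, and up to 0.676 over the 17 alternatives. SRM (spermidine synthase, 0.42) and SMOX (spermine oxidase, 0.31) were not called and their groups overlapped.

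Genes of creatine and nitric oxide metabolism (12 of 14 tested, 1 called) had a median of -0.06. CKB, the brain-type creatine kinase, fell from 128, 111 and 113 CPM in the controls to 48.9, 49.9 and 61.9 CPM in the sedanolide libraries. The groups lay well apart, at 117.0 ± 9.23 and 53.6 ± 7.21 CPM (SD, n = 3). This was -1.13 ± 0.138 in log2 fold change (± standard error, edgeR adjusted p = 0.0244). It was -0.94 and -1.19 within the sides. When single libraries were dropped, CKB passed both thresholds only without sedanolide 3 (edgeR adjusted p = 0.0116). The adjusted p was 0.197, 0.111 and 0.0659 without controls 1 to 3 and 0.108 and 0.225 without sedanolide 1 and 2. DDAH2, which breaks down dimethylarginine, had a log2 fold change of -0.36 and GATM, the first enzyme of creatine synthesis, of -0.96 at 0.309 to 1.23 CPM. Neither was called, and DDAH2 shares 37 exon bases with the far more abundant CLIC1 on the same strand.

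Enzymes of amino acid breakdown and transamination (18 of 19 tested, 0 called) had a median of 0.19. HAL, which releases ammonia from histidine, had 7.88, 7.75 and 5.03 CPM in the controls and 2.63, 2.39 and 3.45 CPM in the sedanolide libraries, or -1.28 ± 0.240 in log2 fold change (± standard error, edgeR adjusted p = 0.0830). The groups did not overlap. HAL passed both thresholds with DESeq2 (adjusted p = 0.00107), with the side as a term (0.00514) and with all genes of at least 1 count (0.0201). PSAT1, an aminotransferase of serine synthesis (0.44), and HPD of tyrosine breakdown (0.37) were not called.

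Transporters of ammonia, urea, glutamine and basic amino acids (14 of 19 tested, 0 called) had a median of -0.05. RHCG, AQP9 and SLC14A1, an ammonia channel, a liver aquaglyceroporin that passes urea, and a urea transporter, had no count in any library. RHBG, another ammonia channel, had 19.2 to 25.5 CPM across the libraries, with a log2 fold change of -0.25, and was not called. SLC3A2, the shared heavy chain of several amino acid transporters, had 110, 104 and 148 CPM in the controls and 271, 223 and 168 CPM in the sedanolide libraries (0.87 in log2 fold change, edgeR adjusted p = 0.181). SLC38A4, a neutral amino acid transporter of liver, was at -1.22 in log2 fold change (adjusted p = 0.186) and SLC1A5, a glutamine transporter, at 0.64 (adjusted p = 0.254). The groups did not overlap in these 3 genes, which were named for their low p-values. Of the 14 tested, the treated libraries lay above all controls for 2 and below them for 3, where 18.3% of all features had groups that did not overlap. SLC3A2 and SLC38A4 passed both thresholds with DESeq2 (adjusted p = 0.0101 and 0.0295) and with the side as a term (0.00752 and 0.0146).

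Transcription factors and receptors known to act on urea cycle genes (13 of 14 tested, 0 called) had a median of -0.04. KLF15, a factor of amino acid breakdown, had control and treated means of 3.18 ± 0.194 and 2.04 ± 0.253 CPM (SD, n = 3), or -0.65 in log2 fold change (edgeR adjusted p = 0.228). FOXA1 (-0.30) and CEBPA (-0.33) had the next lowest p-values, and neither they nor HNF4A (-0.22) were called. CEBPA overlaps an antisense long noncoding RNA with 9.67% as many counts. GCGR, the glucagon receptor, was not tested.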

How the data were processed

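RNA-seq libraries of control cells (n = 3) and sedanolide-treated cells (n = 3) were analyzed. Per the labels and methods, mRNA was captured, directional libraries were sequenced as 150 bp paired ends, and the authors used FastQC, Trimmomatic, STAR (GRCh38) and RSEM. Versions, annotation release and strand setting are not given in the sources used here. The authors deposited expected counts, which were not normalized, and a second table of log2 values, log2(TPM + 1), for 11006 genes and reporters, whose filter is not stated.

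Expected counts were rounded and analyzed with edgeR 4.0.16 in R 4.3.3 (filterByExpr, TMM factors, robust glmQLFit, glmQLFTest, condition as the only term). Standard errors and 95% intervals come from the quasi-likelihood F statistic and its degrees of freedom. DESeq2 1.42.0 and limma 3.58.1 were run as alternatives, and the study's own test was DESeq2. The second table was tested with limma at a pseudocount of 1 or 0.1, on which scale fold changes of low genes are understated. Positions and exon lengths are from GENCODE 44, and levels between genes were compared per length only. The total of 16420258 to 26714853 counts per library sets the precision of low genes.

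The members and lists were chosen with earlier results of these data known. All members are named, and in each other list the genes called and then those with the lowest p-values up to 3. ASNS, HNF4A, GCGR, RHBG, CLIC1, SHLD2, VTI1B and genes without any count were named beyond this rule. The labels do not say whether the replicate numbers pair the libraries, and the numbers were not used as pairs in the main fit. A fit with the number as a block is given below. The procedure was tested on simulated data. Libraries within a group differed by more than sampling noise, and none was left out.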

Additional observations from a re-analysis of the deposited data

How the results depend on the processing

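None of the 7 members of the main comparison was called under any of the 17 alternatives, 15 of which tested all 7, and ARG1, ARG2, ASS1 and CPS1 kept their direction wherever they were tested. ARG1 had 13 to 37 counts per library and NAGS 7 to 14. Where a fit included them, NAGS had log2 fold changes of -0.66 to -0.31 in 7 alternatives, and OTC had an adjusted p of 0.809 in 1, and neither was called. ASL changed sign with the side as a term (-0.22), SLC25A13 with the side as a term (-0.05) and in the second table (-0.04 at both pseudocounts), and SLC25A15 with library size scaling (-0.01) and in the second table (-0.11 and -0.12). The causes were not tested. Leaving out each library in turn gave log2 fold changes of -1.19 to -0.62 for ARG1, 0.26 to 0.66 for ARG2, -0.15 to 0.48 for ASL, 0.16 to 0.51 for ASS1, -0.66 to -0.10 for CPS1, -0.01 to 0.18 for SLC25A13 and -0.04 to 0.10 for SLC25A15.

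The numbers of features called higher and lower were 130 and 198 with DESeq2, 151 and 230 with the side as a term, 79 and 79 with all genes of at least 1 count, and 33 and 28 in the second table (33 and 35 at a pseudocount of 0.1). They ranged from 0 to 66 and from 0 to 70 when a library was left out. The number called was 0 when either control 1 or sedanolide 2 was left out, with 1067 and 889 features at an unadjusted p-value under 0.05 in edgeR. With the replicate number as a block, 0 features were called in either direction (772 at an unadjusted p-value under 0.05), CKB was not called (adjusted p = 0.435 from edgeR) and creatine and nitric oxide genes had 0 calls. The labels do not say whether the numbers pair the libraries. Deviations of same-numbered libraries correlated at -0.133, -0.295 and -0.73, and 0 of 6 libraries correlated best with its own number. These deviations include the split along component 1, so they cannot tell whether same-numbered libraries were handled together.

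In the related lists, supply genes had 1 call with DESeq2, limma-voom, library size scaling and the side as a term. Glutamine, glutamate and proline genes had 3 with DESeq2 and 1 with the side, polyamine genes and amino acid breakdown 1 each with DESeq2, the side or all genes of at least 1 count, transporters 2 with DESeq2 and with the side, and creatine and nitric oxide genes 0 in the second table. When a library was left out, polyamine genes, transporters and creatine genes had 0 to 1 calls. The median of transporters was 0.12 with a filter of 0.5 CPM and -0.34 in the second table, and that of regulators -0.08 with library size scaling and -0.07 at a pseudocount of 0.1. Without single libraries the medians ranged from -0.14 to 0.08 for transporters, -0.12 to -0.01 for regulators, -0.04 to 0.17 for supply genes and -0.16 to 0.01 for glutamine, glutamate and proline genes.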
